A study of Mus musculus with 36 samples.

Results

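The genes described are the axon guidance ligands and receptors of the mouse: the semaphorins, ephrins, netrins, netrin-Gs and Slits, and the plexins, neuropilins, Eph receptors, Unc5 and Dcc receptors and Robos. They were chosen by symbol, and 71 of the 21761 genes listed for each library matched. Of these, 37 are ligands (20 semaphorins, 8 ephrins, 4 netrins, 2 netrin-Gs and 3 Slits). The other 34 are receptors (14 Eph receptors, 9 plexins, 5 Unc5 or Dcc receptors, 4 Robos and 2 neuropilins). Enough reads for a test were present for 34 ligands and 32 receptors, 66 members in all, out of 15204 genes tested. A gene that is high in some groups passes this filter more easily, so the 66 do not stand for all 71.

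Growing axons steer by cues that they meet on their way. Slits and class 3 semaphorins are secreted and act mainly as repellents, Slits through Robo receptors and class 3 semaphorins through neuropilins paired with plexins, while membrane-bound semaphorins bind plexins directly. Netrins attract axons through Dcc and repel them when Unc5 receptors take part, and ephrins on one cell signal to Eph receptor kinases on another. In the spinal cord these systems set where motor axons leave the cord and which part of the limb they enter, with Epha4 and Ephb1 marking motor neurons that take different routes into the limb.

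The libraries came from motor neurons made in culture from embryonic stem cells of the mouse strain Hlxb9-GFP1Tmj, whose transgene is described once as eGFP with CD2 and once as eGFP with or without CD2, under the promoter of the motor neuron gene Mnx1 (HB9). Cells that bound an antibody against CD2 were kept on a magnetic column, so every group was sorted on that transgene. All groups then received medium that astrocytes had conditioned, supplemented with glucose, penicillin/streptomycin, GDNF, BDNF and CNTF. The astrocytes came from newborn pups and were non-transgenic (NTg), overexpressed the G93A mutant form of SOD1 linked to amyotrophic lateral sclerosis (mSOD1), or overexpressed wild-type SOD1 (wtSOD1). The labels name no SOD1 transgene in the neurons. RNA was taken after 1 or 3 days, with 6 libraries per medium and day, and the labels number the experiments 1 to 6 in each group. Spinal cord and cortex both served as astrocyte source, and the labels do not say which of them lay behind which library. The time zero control was not analysed here.

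Library totals ran from 4.39 to 88.9 M reads with a median of 13.3 M, and the members took 0.523% to 0.625% of them. Each level is in counts per M reads (CPM, with scaled library sizes), given for a group as its lowest–highest library with the median of its 6 libraries. The share of all genes whose groups do not overlap is not given, so a lack of overlap describes single genes only. A pair of day 1 libraries stood apart in earlier work on these data, NTg replicate 6 (the smallest) and wtSOD1 replicate 4 (the largest). Results that change without them are given both ways. Motor neuron markers were present on day 1, with Mnx1 at a mean of 112 CPM, Isl1 at 160 CPM and Chat, the acetylcholine-synthesising enzyme, at 223 CPM in NTg medium. On day 3 these were 34.6, 56.96 and 81.8 CPM. Gfap, the defining astrocyte marker, averaged at most 1.02 CPM in any group, but the 8 genes of the astrocyte list summed to 123–672 CPM. Their change with day is given below. Lists for other cell types had reads in every library: 8 oligodendrocyte genes summed to 70.7–254 CPM, led by Mbp and Cnp, 8 microglial genes to 10.6–54.5 CPM, mostly P2ry12, and 7 endothelial genes to 20.4–38.8 CPM. The 5 genes of the pluripotent cell list summed to 1.57–25.3 CPM, highest in mSOD1 replicate 5 of day 1 (25.3) and NTg replicate 1 of day 3 (20.2). The highest oligodendrocyte and microglial sums were both those of NTg replicate 6 of day 1, where the next highest were 105.7 and 21.6 CPM, and it was the only library with reads of C1qa, a defining microglial gene (6.6 CPM). Proliferation and mesenchyme markers had reads in every group and are given beside the results. The labels name separate experiments and no separate stem cell lines or animals, so p-values measure the spread between these experiments.

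The promoters of Ephb1, Unc5c, Nrp1 and Plxnc1 are shown. These receptors were higher in mSOD1 medium than in both control media on day 3 and have a window in the table used. RefSeq windows (build GRCm38.p6) of 300 bases, from 250 before to 50 after the start, were at hand for 61 of the 71 members and for 5 of the 7 receptors that were higher in mSOD1 than in NTg medium. The Ephb1 window lies at chr9:102354644-102354943 on the minus strand, that of Unc5c at chr3:141465314-141465613 on the plus strand, that of Nrp1 at chr8:128358823-128359122 on the plus strand and that of Plxnc1 at chr10:94944796-94945095 on the minus strand. Capitals mark the GC box GGGCGG or its reverse complement.

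Ephb1: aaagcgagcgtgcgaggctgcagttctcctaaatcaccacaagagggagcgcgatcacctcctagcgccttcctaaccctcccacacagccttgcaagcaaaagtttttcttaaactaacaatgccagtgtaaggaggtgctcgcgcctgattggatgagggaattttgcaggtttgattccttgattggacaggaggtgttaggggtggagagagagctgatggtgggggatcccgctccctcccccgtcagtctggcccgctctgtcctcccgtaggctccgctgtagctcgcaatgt
Unc5c: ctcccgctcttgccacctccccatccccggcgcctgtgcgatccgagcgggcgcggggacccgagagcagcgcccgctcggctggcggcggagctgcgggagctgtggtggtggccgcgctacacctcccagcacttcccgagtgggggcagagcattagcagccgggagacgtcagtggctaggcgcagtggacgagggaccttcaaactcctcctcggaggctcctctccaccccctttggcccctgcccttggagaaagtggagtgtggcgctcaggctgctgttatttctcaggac
Nrp1: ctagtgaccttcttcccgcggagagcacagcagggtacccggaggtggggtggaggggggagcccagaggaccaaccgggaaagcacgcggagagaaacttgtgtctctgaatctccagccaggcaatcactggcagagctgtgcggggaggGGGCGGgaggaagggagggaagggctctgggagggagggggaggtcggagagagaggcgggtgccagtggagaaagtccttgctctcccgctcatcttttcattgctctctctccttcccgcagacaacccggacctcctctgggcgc
Plxnc1: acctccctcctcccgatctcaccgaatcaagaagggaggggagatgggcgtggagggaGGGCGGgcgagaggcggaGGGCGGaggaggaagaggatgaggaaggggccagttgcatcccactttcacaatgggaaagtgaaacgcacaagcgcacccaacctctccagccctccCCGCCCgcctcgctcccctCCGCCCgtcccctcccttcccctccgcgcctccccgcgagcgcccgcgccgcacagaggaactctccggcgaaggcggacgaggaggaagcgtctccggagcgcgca

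The patterns below were searched on both strands, and overlapping matches were counted: the STAT pattern TTCNNNGAA, the homeodomain core TAATTA, the E-box CAGCTG, the GC box GGGCGG given above, and the TATA box TATAAA. Plxnc1 held 4 GC boxes and Nrp1 held 1, with no other pattern in either, and the Ephb1 and Unc5c windows held none of the patterns. The GC box was found in 70.1% of the 77 member windows and in 35.7% of all 32851 RefSeq windows. Member windows were also richer in G and C, with a median of 64% against 52.67% over all windows. TATAAA was in 2.6% of member windows and 13.6% of all, TTCNNNGAA in 3.9% and 8.3%, CAGCTG in 15.6% and 16.3%, and TAATTA in 3.9% and 5.29%. A match is a description of letters and says nothing of binding.

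Both sides of the guidance systems were expressed at the same time. Compared between genes per kb of exon, the ligand with the highest mean in NTg medium on day 1 was Slit3, a secreted repellent, at 76.7 ± 6.14 CPM per kb (SD, n = 6). Ntn1, the secreted netrin made by the floor plate in the embryo, came next at 47.1 ± 5.87 CPM per kb, followed by Sema3c at 41.0 ± 4.22 and Sema6d at 40.9 ± 2.99 CPM per kb, a pair that did not differ beyond their spread. On day 3 the order had changed, with Ntn1 first at 100.4 ± 22.9 CPM per kb and Slit3 at 37.2 ± 3.37. Among receptors Nrp1, the neuropilin that binds Sema3a, had the highest level on day 1 at 45.1 ± 1.93 CPM per kb, above Plxna1 (34.8 ± 2.88), a signalling partner of neuropilins, and the Slit receptor Robo2 (33.5 ± 2.24). Below Nrp1 the order depends on the length used: per kb of the longest transcript Nrp2 was at 35.3, Plxna1 at 34.8 and Robo2 at 34.8 CPM per kb, whereas Nrp2 was at 22.8 ± 2.66 per kb of all exons. Plxna1 and Robo2 overlapped within their spread. On day 3 Plxnb2, a receptor for class 4 semaphorins, was first at 57.1 ± 1.78 CPM per kb, ahead of Plxna1 at 37.5 ± 1.27. Exon lengths were taken from GENCODE M21, on GRCm38, while the counts were made on mm9, so these levels order the genes approximately.

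The 5 members that were not tested had few reads: no group mean exceeded 0.512 CPM for the ephrin Efna1, 0.390 CPM for the semaphorin Sema3g, 0.345 CPM for the plexin Plxnb3, 0.222 CPM for the endothelial Robo4 and 0.192 CPM for the netrin Ntn5. The means of Plxnb3 and Robo4 rested mostly on NTg replicate 6 of day 1, at 1.89 and 1.18 CPM. Robo3, a Robo of commissural neurons, was tested and its highest group mean was 0.896 CPM, with no read in 6 libraries.

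**Figure D1:**
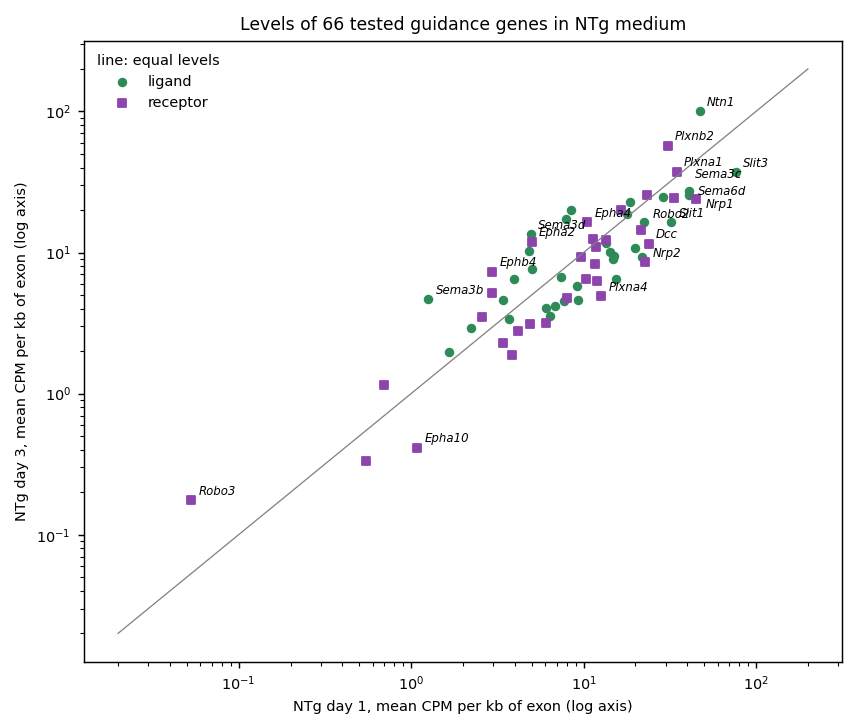
Mean level of the 66 tested members in NTg medium on day 3 (y axis) against day 1 (x axis), both in CPM per kb of exon on log axes, with 1 point per gene (circles ligands, squares receptors) and a line of equal levels. Ntn1 and Plxnb2 lie above the line and Slit3, Nrp1, Dcc, Nrp2 and Plxna4 below it, and Robo3 is far lower than the rest.

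More members passed the test between days than between media. From day 1 to day 3 in NTg medium 22 members rose and 36 fell (edgeR quasi-likelihood test, Benjamini-Hochberg adjusted p below 0.05), where 61.5% of all 15204 genes passed in either direction. In mSOD1 medium 23 rose and 31 fell (56.5% of all genes passed), and in wtSOD1 medium 23 rose and 33 fell (61.8%). Robo3 is among those counted as higher in each medium, but it reached the filter on low counts through day 3 alone (in 9 of 18 libraries, against 1 of 18 on day 1), so its difference is a description and it is left out of the count over all 3 media. Without it 21, 22 and 22 members rose. The same 18 members rose in all 3 media, 10 ligands and 8 receptors, and 29 fell in all 3, 17 ligands and 12 receptors. Over all genes 23.2% rose and 22.1% fell in all 3 media. The median log2 difference in NTg medium was -0.33 over ligands, -0.47 over receptors and near 0 over all genes (-0.000203). In wtSOD1 medium the medians were -0.27 over ligands and -0.46 over receptors, while in mSOD1 medium the order was the other way, -0.20 over ligands and -0.034 over receptors (-0.0057 and -0.0080 over all genes). Both roles held members that rose and members that fell, and each family is given in turn.

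Of the 6 class 3 semaphorins tested, 5 rose and 1 fell from day 1 to day 3 in NTg medium. Over all 15204 genes 4681 rose and 4677 fell in that medium. Sema3a, which repels axons through Nrp1, was at 44.5–60.6 CPM (median 52.4) on day 1 and 104–132 CPM (median 129) on day 3 in NTg medium, a log2 difference of 1.25 ± 0.07 (SE; adjusted p = 1.50e-17, edgeR). Every day 3 library lay above every day 1 library, and the difference was 1.12 ± 0.07 in mSOD1 and 1.25 ± 0.07 in wtSOD1 medium. Sema3d went from 32.01–38.9 CPM (median 37.6) to 69.7–115 CPM (median 104), 1.45 ± 0.11 on the log2 scale (adjusted p = 8.91e-14, edgeR), also without overlap. Sema3b was low on day 1, 2.83–5.61 CPM (median 4.81), and reached 14.3–19.1 CPM (median 17.4) on day 3, 1.81 ± 0.15 (adjusted p = 1.99e-13, edgeR). Its rise was 1.94 ± 0.15 in wtSOD1 medium and 1.14 ± 0.15 in mSOD1 medium. Sema3c instead fell, from 203–264 CPM (median 221) to 130.3–162 CPM (median 153), -0.58 ± 0.06 (adjusted p = 5.01e-11, edgeR).

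Of the 13 semaphorins of the membrane-bound classes 4 to 7 that were tested, 11 fell and 1 rose in NTg medium. Over all genes 61.5% passed there in either direction. Sema6c, a transmembrane semaphorin, was at 72.5–102 CPM (median 92.7) on day 1 and 31.7–47.7 CPM (median 34.7) on day 3, and differed by -1.24 ± 0.10 on the log2 scale in NTg and -1.08 ± 0.11 in mSOD1 medium. Sema7a, the lipid-anchored ligand of Plxnc1, differed by -1.23 ± 0.10 in NTg, -0.95 ± 0.10 in mSOD1 and -1.19 ± 0.10 in wtSOD1 medium. Sema6d, the highest of the transmembrane class per kb, went from 264–318 CPM (median 294) to 151–206 CPM (median 186), -0.68 ± 0.10 (adjusted p = 2.23e-07, edgeR). Sema5b was the member that rose, by 0.30 ± 0.06 (adjusted p = 5.38e-05, edgeR). These levels include any cell type in the cultures: fewer cells of a type and less RNA per cell cannot be told apart in bulk libraries.

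All 3 tested netrins rose and all 3 Slits fell in NTg medium, where 61.5% of all genes passed. In mSOD1 and in wtSOD1 medium 2 of the 3 netrins rose and 2 of the 3 Slits fell past the threshold. Ntn1 was at 248–340 CPM (median 273) on day 1 and 485–876 CPM (median 595) on day 3 in NTg medium, 1.09 ± 0.14 on the log2 scale (adjusted p = 3.14e-08, edgeR), with no overlap. Replicate 2 was the highest library of day 3, at 876 CPM against 607 CPM for the next. Ntn4, a netrin that also binds laminin, differed by 1.04 ± 0.10 in NTg and 1.04 ± 0.10 in mSOD1 medium. Slit1 went from 176–200.2 CPM (median 190.3) to 79.4–116 CPM (median 93.8), and its log2 differences in NTg, mSOD1 and wtSOD1 medium were -0.98 ± 0.08, -0.92 ± 0.08 and -0.91 ± 0.08. Slit3 was at 364–461 CPM (median 395) and then 167–212 CPM (median 198), -1.05 ± 0.08 (adjusted p = 2.03e-13, edgeR), again without overlap. Slit2 had the smallest difference of the Slits in NTg medium (-0.22 ± 0.08, adjusted p = 0.017, edgeR), with overlapping groups, and did not pass once NTg replicate 6 and wtSOD1 replicate 4 of day 1 were left out (0.063). In mSOD1 medium Slit2 differed by -0.17 ± 0.08 (adjusted p = 0.0766) and in wtSOD1 medium by -0.05 ± 0.08 (adjusted p = 0.581), and neither passed. The netrin-Gs, lipid-anchored partners of the NGL adhesion proteins, moved apart: in NTg medium Ntng1 differed by -1.03 ± 0.10 and Ntng2 by 0.68 ± 0.10. Ntng2 shares 20.4% of its exon length with the neighbouring transcript 6530402F18Rik, and the sources used here do not say whether the counting used strand.

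Ephrins, the ligands of Eph receptors, were mixed, with 2 of 7 higher and 3 lower in NTg medium (61.5% of all genes passed). Efnb1 went from 19.8–30.01 CPM (median 26.2) to 52.6–64.0 CPM (median 55.1), 1.09 ± 0.08 (adjusted p = 5.10e-15, edgeR), and its log2 difference was 1.06 ± 0.08 in mSOD1 and 1.10 ± 0.08 in wtSOD1 medium. Its relative Efnb3 was at 40.6–58.4 CPM (median 47.3) and then 25.7–39.3 CPM (median 28.9), -0.65 ± 0.09, so the B class held changes of both signs. Efnb2 was nearly level in NTg medium, 79.0–90.7 CPM (median 86.9) against 82.7–93.2 CPM (median 91.2) (0.06 ± 0.06, adjusted p = 0.418, edgeR). The A class members Efna2 (-0.75 ± 0.11) and Efna3 (-0.65 ± 0.11) fell in all 3 media, while Efna4, of the same class, rose in all 3 (0.62 ± 0.11 in NTg medium). Efna3 shares 14.6% of its exon length with the antisense transcript Gm15998, and Efna4 shares 10.5% with the antisense 4731419I09Rik.

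On the receptor side, both neuropilins fell (61.5% of all genes passed in NTg medium). Nrp2, the receptor of Sema3f, was at 211–288 CPM (median 229) on day 1 and 84.8–91.9 CPM (median 88.2) on day 3, -1.43 ± 0.06 on the log2 scale (adjusted p = 3.58e-21, edgeR). Nrp1 was at 155–172 CPM (median 162) and 72.7–92.8 CPM (median 88.1), -0.92 ± 0.06 (adjusted p = 1.27e-15, edgeR). Day 1 and day 3 did not overlap for either. Plexins moved in both directions: Plxna4, which signals for Sema3a, fell by 1.37 ± 0.09 on the log2 scale in NTg medium, from 146–187 CPM (median 161) to 54.9–70.7 CPM (median 62.5). Plxnb2 rose from 173–227 CPM (median 202) to 361–394 CPM (median 374), 0.89 ± 0.06 (adjusted p = 8.12e-16, edgeR). Plxnd1, the receptor of Sema3e, rose from 16.1–25.3 CPM (median 20.6) to 31.4–38.7 CPM (median 36.1), 0.78 ± 0.09 (adjusted p = 1.83e-09, edgeR). Plxna1 passed in mSOD1 (0.18 ± 0.06) and wtSOD1 medium (0.16 ± 0.06) and not in NTg (0.10 ± 0.06, adjusted p = 0.114), and it shares 10.7% of its exon length with the antisense Gm26811.

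Eph receptors moved both ways, 6 of 14 up and 7 down in NTg medium (61.5% of all genes passed). Ephb4, known from vessels, was at 9.66–16.8 CPM (median 11.7) on day 1 and 29.2–36.2 CPM (median 31.7) on day 3, 1.26 ± 0.11 (adjusted p = 2.12e-12, edgeR). Epha2 went from 15.7–26.7 CPM (median 18.2) to 38.0–51.2 CPM (median 48.7), 1.23 ± 0.11 (adjusted p = 5.25e-12, edgeR). Epha4, the receptor of limb motor axons, also rose, from 55.1–73.5 CPM (median 68.0) to 92.5–110.2 CPM (median 104), 0.65 ± 0.07. None of these 3 overlapped between days. Among the fallers, Epha7 was at 55.2–69.1 CPM (median 60.8) and then 30.6–40.2 CPM (median 36.1), -0.74 ± 0.09, and Ephb6, a member without kinase activity, differed by -0.69 ± 0.08. All 5 Unc5 and Dcc receptors fell in NTg and in wtSOD1 medium and 4 of 5 in mSOD1 medium. The shares of all genes that passed there were 61.5%, 61.8% and 56.5%. Dcc was at 229–266 CPM (median 246) on day 1 and 103–132 CPM (median 119) on day 3, -1.04 ± 0.10 (adjusted p = 9.29e-11, edgeR), with no overlap in NTg medium. Robo2 fell in NTg (-0.47 ± 0.10) and wtSOD1 medium (-0.51 ± 0.10), while Robo1, its close relative, passed in none of the 3 media (-0.13 ± 0.06 in NTg, adjusted p = 0.0669). Robo3 had a median of 0.0628 CPM on day 1 and 0.851 CPM on day 3 in NTg medium. The groups overlapped only through NTg replicate 6 of day 1, a library that stood apart, at 1.41 CPM. The other day 1 libraries were at most at 0.0922 CPM and the lowest of day 3 was at 0.557 CPM.

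**Figure D2:**
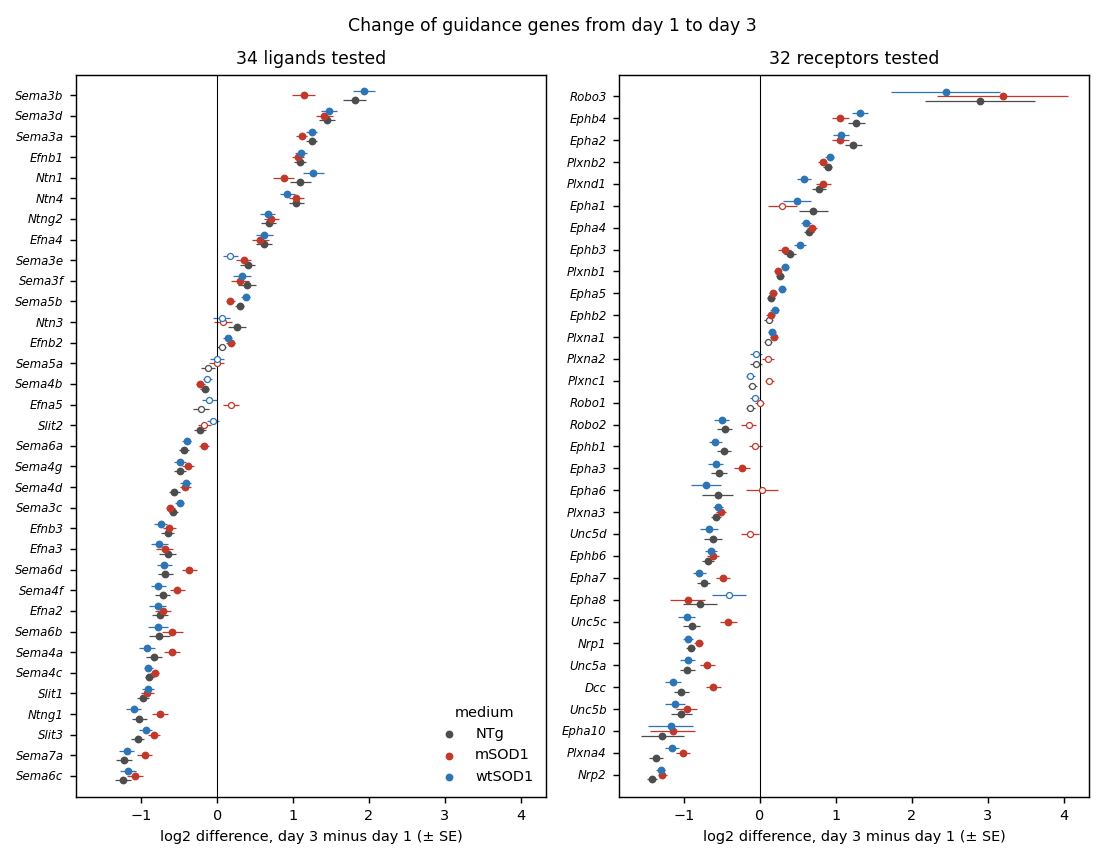
Log2 difference between day 3 and day 1 (x axis, with SE) for each tested ligand (left) and receptor (right) in the 3 media, sorted by the NTg value; filled points passed the test (adjusted p below 0.05). Sema3b, Sema3d and Sema3a lie at the top of the ligands and Sema6c at the bottom, and Nrp2 and Plxna4 are the lowest receptors; Robo3, the highest, was near 0 CPM on day 1 and reached the test through day 3 alone.

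Cell type markers moved with day as well. Their counts are those of NTg medium, where 61.5% of all genes passed. All 8 motor neuron markers fell in NTg medium, and their summed level went from 1459–1780 to 631–1043 CPM. The 8 pan-neuronal markers also all fell, from 8260–9543 to 4186–6437 CPM in sum. Of the progenitor and proliferation list 6 of 8 rose and 1 fell (sums 869–1125 and 1758–2255 CPM), and all 7 tested mesenchyme markers rose (433–674 and 1266–1720 CPM). Of the astrocyte list 7 of 8 rose (126–174 and 478–672 CPM), led in level by Slc1a3, which radial progenitors also express, while Gfap and Aqp4 were near 0 (means of 1.02 and 2.63 CPM on day 3). All 3 tested floor plate markers rose, with Shh at a mean of 25.9 and then 81.9 CPM. The spinal interneuron list fell in 7 of 7 tested members. The part of these shifts in the day differences of the guidance genes was not tested.

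**Figure D3:**
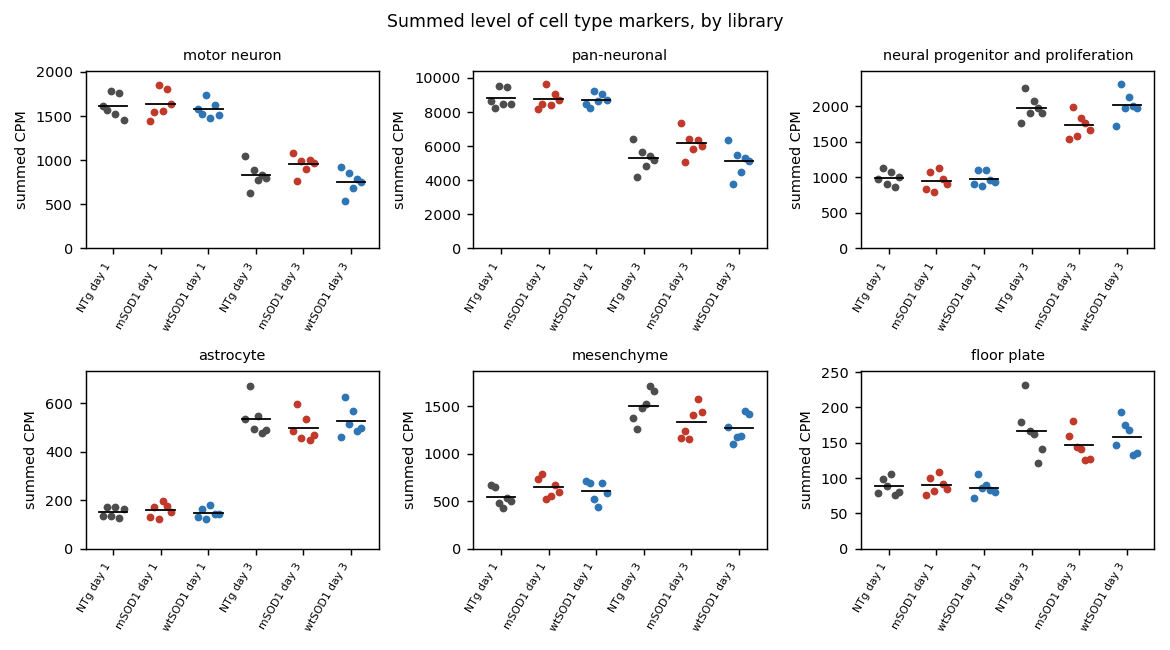
Summed level of 6 marker lists (y axis, CPM) in each of the 36 libraries by medium and day, with 1 point per library and a line at the group mean. Motor neuron and pan-neuronal sums are lower on day 3 than on day 1, the other 4 are higher, and on day 3 the pan-neuronal points of mSOD1 medium sit between 5074 and 7374 CPM.

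Medium from mSOD1 astrocytes was compared with NTg medium on each day. On day 3, 7 members were higher in mSOD1 medium, all of them receptors: Ephb1, Unc5c, Dcc, Robo2, Nrp1, Plxna4 and Plxnc1. None of the 34 ligands passed (edgeR; 10 had an unadjusted p below 0.05, and DESeq2 called Sema3b and Sema5b lower). Over all genes 2.94% passed in either direction and 2.24% were higher. The median log2 difference was 0.07 over receptors, 0.04 over ligands and -0.0063 over all genes. Whether receptors and ligands differ in this respect was not tested.

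Ephb1 (gene identifier 270190), a receptor of B ephrins, was at 47.4–67.0 CPM (median 52.2) in NTg and 64.2–92.6 CPM (median 69.3) in mSOD1 medium on day 3. The highest libraries of mSOD1 medium were replicates 1 and 3 at 92.6 and 87.0 CPM, and the groups overlapped because NTg replicate 1 at 67.0 CPM lay above mSOD1 replicate 2 at 64.2 CPM. The log2 difference was 0.47 ± 0.09 (SE; adjusted p = 0.00355, edgeR), and mSOD1 medium was higher in 6 of 6 pairs of the same experiment number. Unc5c (gene identifier 22253), the repulsive netrin receptor, was at 45.9–69.5 CPM (median 63.1) and 65.7–108 CPM (median 84.3), 0.46 ± 0.12 (adjusted p = 0.0289, edgeR, 6 of 6 pairs). Replicate 2 was the lowest library in both media, at 45.9 and 65.7 CPM, and the groups overlapped. Dcc (gene identifier 13176), the attractive netrin receptor, was at 103–132 CPM (median 119) and 128–212 CPM (median 144), 0.38 ± 0.10 (adjusted p = 0.0382, edgeR, 6 of 6 pairs). The mSOD1 libraries 1 and 3 lay above all others, at 171.7 and 211.9 CPM, and replicate 2 of mSOD1 medium, at 127.5 CPM, lay within the range of NTg.

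Robo2 (gene identifier 268902) was at 182–253 CPM (median 211) in NTg and 224–333 CPM (median 271) in mSOD1 medium, 0.35 ± 0.10 (adjusted p = 0.0437, edgeR, 6 of 6 pairs). The ranges overlapped widely, and replicates 1 and 3 were the highest in both media. Plxna4 (gene identifier 243743) was at 54.9–70.7 CPM (median 62.5) and 67.0–94.0 CPM (median 82.5), 0.36 ± 0.09 (adjusted p = 0.029, edgeR, 6 of 6 pairs). Its co-receptor Nrp1 (gene identifier 18186) was at 72.7–92.8 CPM (median 88.1) and 88.6–109.7 CPM (median 103), 0.24 ± 0.06 (adjusted p = 0.0334, edgeR, 6 of 6 pairs). In both, replicate 2 was the lowest library of each medium. Plxnc1 (gene identifier 54712), the Sema7a receptor, had the smallest difference of the 7, 74.5–85.8 CPM (median 80.6) against 85.8–99.8 CPM (median 93.7), 0.22 ± 0.06 (adjusted p = 0.0368, edgeR, 6 of 6 pairs). Its groups overlapped only at their edges, since the highest NTg and the lowest mSOD1 library were both at 85.8 CPM. Annotated neighbours share at most 2.34% of the exon length of these genes (Gm26846 at Ephb1).

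**Figure D4:**
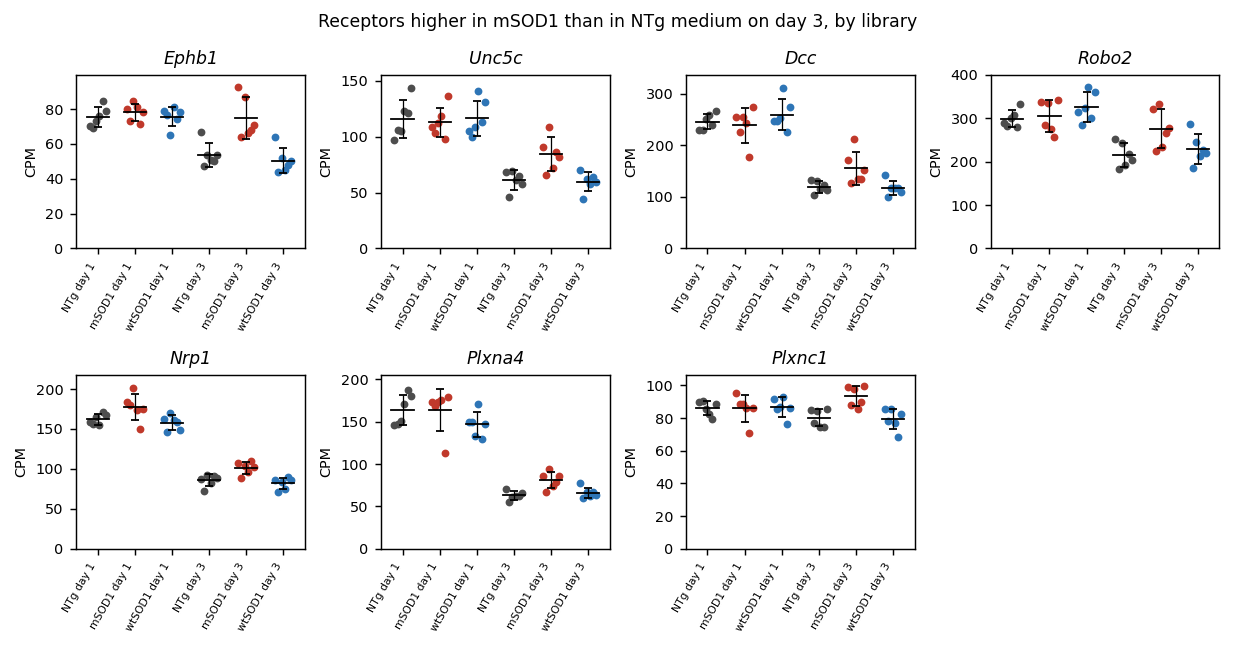
CPM (y axis) of the 7 receptors that were higher in mSOD1 than in NTg medium on day 3, with 1 point per library in 6 groups of medium and day and the group mean ± SD. On day 3 the mSOD1 points of Ephb1 run from 64.2 to 92.6 CPM and those of NTg from 47.4 to 67.0 CPM, and on day 1 the media overlap throughout.

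Wider and narrower calls surround these 7. With experiment as a block 15 members passed (9.93% of all genes), and with experiment within day 22 (18.1%). The block added the receptors Plxna2 (0.26, adjusted p = 0.00405, edgeR) and Unc5d, and 6 ligands, so the ligands did not remain without a call. Sema4a, Sema4f, Sema6d and Sema7a were higher under it, and Sema3b (-0.44, adjusted p = 0.0175, edgeR) and Sema5b lower. Without the block Sema3b was at 14.3–19.1 CPM (median 17.4) in NTg and 9.54–17.2 CPM (median 12.8) in mSOD1 medium, -0.43 ± 0.13 (adjusted p = 0.0647, edgeR, lower in 6 of 6 pairs). Single libraries decided the count: it was 0 without experiment 3 (0.211% of all genes), where the adjusted p of Ephb1 was 0.0541, and 1 without mSOD1 replicate 1, mSOD1 replicate 3, NTg replicate 2 or NTg replicate 4 of day 3. It was 2 without mSOD1 replicate 6, 3 without NTg replicate 5 or 6, and 13 without mSOD1 replicate 2 or NTg replicate 1. No share of all genes is given for single libraries left out. Whether these swings are particular to the members was not tested. DESeq2 called 10 members (4.56% of all genes). Without the filter on low counts 4 remained past the threshold, with Dcc, Robo2 and Plxnc1 no longer among them. The share of all genes is not given for the fit without that filter.

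Neuronal markers moved with these receptors, in a comparison where 2.94% of all genes passed. The summed pan-neuronal level on day 3 was 4186–6437 CPM in NTg and 5074–7374 CPM in mSOD1 medium, higher in 6 of 6 pairs. Of its 8 markers 2 rose, Stmn2, a tubulin-binding protein of growing axons (0.32 ± 0.08, adjusted p = 0.0231, edgeR), and Elavl4, a neuronal RNA-binding protein (0.28 ± 0.07, adjusted p = 0.0233). The motor neuron sum was 631–1043 and 767–1082 CPM, also higher in 6 of 6 pairs, with 0 of 8 markers past the threshold and Mnx1 at 0.06 ± 0.14 (adjusted p = 0.846). Progenitor sums (1758–2255 and 1542–1988 CPM), mesenchyme sums (1266–1720 and 1156–1579 CPM) and astrocyte sums (478–672 and 448–598 CPM) were higher in mSOD1 medium in 0 of 6 pairs, and 2 of 7 tested mesenchyme markers fell, Col1a2 and Dcn. The part of these markers in the receptor differences was not tested.

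The comparison of mSOD1 with wtSOD1 medium uses the same mSOD1 libraries, so its values stand beside the first and do not repeat it independently. On day 3, 8 of the 66 members passed (3.37% of all genes): the receptors Ephb1, Unc5c, Dcc, Nrp1 and Plxnc1 and the ligand Sema4a were higher in mSOD1 medium, and the receptor Epha5 and the ligand Sema5b were lower. Ephb1 was at 43.7–64.1 CPM (median 48.8) in wtSOD1 medium, 0.57 ± 0.09 (adjusted p = 0.000116, edgeR). Its lowest mSOD1 library, at 64.2 CPM, was barely above the highest wtSOD1 library. Plxnc1, at 68.5–85.3 CPM (median 80.2) in wtSOD1 medium, differed by 0.23 ± 0.06 (adjusted p = 0.02, edgeR), with its lowest mSOD1 library at 85.8 CPM. Unc5c, at 44.7–69.8 CPM (median 61.1), differed by 0.50 ± 0.12 (adjusted p = 0.0106, edgeR), Dcc by 0.41 ± 0.10 and Nrp1 by 0.31 ± 0.06. Plxna4 (0.30 ± 0.09, adjusted p = 0.0646, edgeR) and Robo2 (0.26 ± 0.10, adjusted p = 0.13) did not pass here, and all 7 were higher in 6 of 6 pairs.

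Neuronal markers moved with this comparison too, where 3.37% of all genes passed. The pan-neuronal sum on day 3 was 3805–6392 CPM in wtSOD1 and 5074–7374 CPM in mSOD1 medium, and the motor neuron sum 534–918 and 767–1082 CPM, both higher in mSOD1 medium in 6 of 6 pairs. Of the pan-neuronal markers 2 of 8 rose, Stmn2 (0.40 ± 0.08, adjusted p = 0.00197, edgeR) and Elavl4 (0.32 ± 0.07, 0.00418), and of the motor neuron markers 1 of 8, the intermediate filament Prph (0.41 ± 0.11, 0.0343). Progenitor sums were 1725–2305 and 1542–1988 CPM, higher in mSOD1 medium in 0 of 6 pairs, with 0 of 8 markers past the threshold. Other lists did not all repeat the pattern against NTg medium. Mesenchyme sums were higher in mSOD1 medium in 4 of 6 pairs here, and in 0 of 6 against NTg medium. Oligodendrocyte sums were higher in 6 of 6 pairs here and in 2 of 6 against NTg medium. Astrocyte sums were higher in 1 of 6 pairs. The part of these markers in the differences from wtSOD1 medium was not tested.

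Sema4a, a transmembrane semaphorin, was at 9.59–14.3 CPM (median 11.8) in wtSOD1 and 13.3–17.9 CPM (median 14.9) in mSOD1 medium, 0.39 ± 0.11 (adjusted p = 0.0307, edgeR, 6 of 6 pairs). Sema5b was at 93.0–123 CPM (median 110.3) and 83.6–99.3 CPM (median 93.9), -0.26 ± 0.06 (adjusted p = 0.00957, edgeR, lower in 6 of 6 pairs). Epha5, a receptor of A ephrins, was at 259–299.6 CPM (median 277) and 229.7–273 CPM (median 234), -0.20 ± 0.05 (adjusted p = 0.0207, edgeR, lower in 6 of 6 pairs). The ranges of all 3 overlapped, and wtSOD1 replicate 1 was the highest library of its group for Sema4a and the lowest for Sema5b and Epha5. The median log2 difference was 0.13 over receptors, 0.04 over ligands and -0.0035 over all genes. With experiment as a block 19 members passed (9.33% of all genes) and with experiment within day 25 (15.6%). The count was 3 without experiment 3 (1.11% of all genes) or 6, and between 2 (without wtSOD1 replicate 2) and 16 (without wtSOD1 replicate 1) when single libraries were left out. It was 3 without mSOD1 replicate 1 or 3, 5 without mSOD1 replicate 6 or wtSOD1 replicate 4, and 14 without mSOD1 replicate 2. No share of all genes is given for experiment 6 or for single libraries left out.

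**Figure D5:**
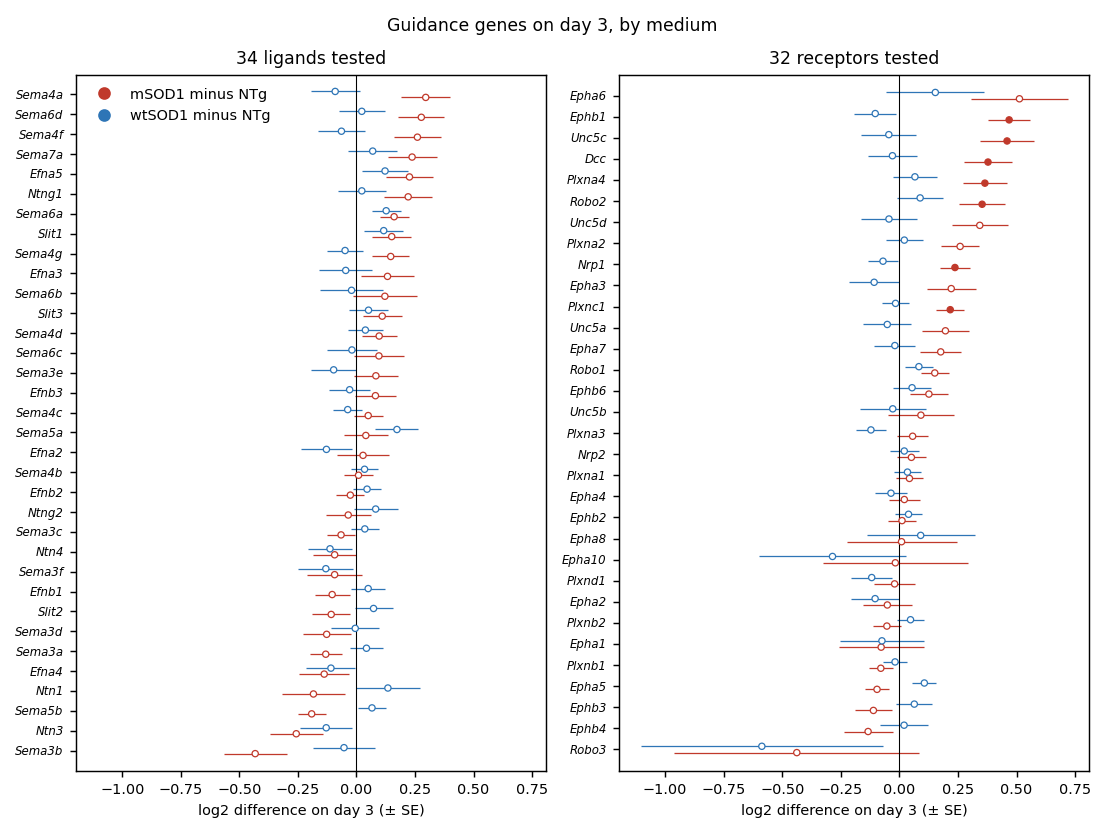
Log2 difference from NTg medium on day 3 (x axis, with SE) of each tested ligand (left) and receptor (right), for mSOD1 and wtSOD1 medium, which share the NTg libraries; filled points passed the test (adjusted p below 0.05). The 7 filled points are mSOD1 receptors between 0.22 and 0.47, and no wtSOD1 point is filled.

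The remaining comparisons between media gave no call among the members unless experiment was a block. On day 1, mSOD1 against NTg medium gave 0 of 66 by edgeR (0.421% of all genes passed), 0 by DESeq2 and 3 at an unadjusted p below 0.05, of which Efnb2 had the lowest (-0.15 ± 0.06, adjusted p = 0.597, edgeR). With experiment within day as a block Efnb2 passed as lower (-0.16, adjusted p = 0.0449, edgeR), the 1 member to do so (1.24% of all genes). Ephb1 was at 69.3–84.6 CPM (median 74.6) in NTg and 71.5–84.5 CPM (median 79.3) in mSOD1 medium on that day, and Dcc at 229–266 CPM (median 246) and 178–274 CPM (median 249). For wtSOD1 against NTg medium the count was 0 on day 1 (0.0263% of all genes; 1 at an unadjusted p below 0.05) and 0 on day 3 (0.0987%; 2 unadjusted), by edgeR and by DESeq2. For mSOD1 against wtSOD1 medium on day 1 it was 0 by both tools (1.01% of all genes by edgeR; 5 unadjusted), and 3 with experiment within day as a block (3.8%), namely Nrp1, Plxna3 and Sema6a.

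Whether the change with day differed between media was tested as an interaction. Ephb1 fell from day 1 to day 3 in NTg (-0.48 ± 0.09, adjusted p = 1.60e-05, edgeR) and wtSOD1 medium (-0.59 ± 0.09, 3.83e-07), and its value in mSOD1 medium was -0.06 ± 0.09 (adjusted p = 0.567). The interaction of mSOD1 against wtSOD1 medium passed for Ephb1 alone, 0.53 ± 0.12 (adjusted p = 0.0349, edgeR), where 0.592% of all genes passed. DESeq2 called 4 members (1.53% of all genes), Ephb1, Dcc and Unc5c with a positive interaction and Sema3b with a negative one. By edgeR the interaction of Ephb1 did not pass once NTg replicate 6 and wtSOD1 replicate 4 of day 1 were left out (adjusted p = 0.0774, with 0.406% of all genes past the threshold) or without experiment 3 (0.115). It was also lost without any 1 of these libraries: mSOD1 replicate 2 or wtSOD1 replicate 4 or 6 of day 1, and mSOD1 replicate 1 or 3 or wtSOD1 replicate 2, 4, 5 or 6 of day 3. With experiment as a block 9 members passed (3.93% of all genes), the receptors Ephb1, Dcc, Unc5c, Unc5d, Plxnc1, Robo2 and Epha7, all with a positive interaction, and the ligands Ntn1 and Sema3b with a negative one. Against NTg medium 0 passed by edgeR (0.23% of all genes, 13 unadjusted) and 0 by DESeq2. Ephb1 was at 0.41 ± 0.12 there (adjusted p = 0.138, edgeR). Without NTg replicate 1 of day 3 the count was 1, with no share of all genes given. With the block it was 2 (2.67% of all genes), Ephb1 (0.0275) and Plxnc1 (0.0309). For wtSOD1 against NTg medium 0 passed by edgeR (0.0197% of all genes; 0 unadjusted) and 0 by DESeq2. The day difference in mSOD1 medium was above that in NTg medium for 25 of 32 receptors and above that in wtSOD1 medium for 23 of 32. For ligands it was 20 of 34 in both, and these comparisons share the mSOD1 libraries. Over all 15204 genes the counts were 7553 against NTg and 7505 against wtSOD1 medium.

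Summed over all 34 receptors, the level on day 3 was 2638–2846 CPM in NTg, 2787–3187 CPM in mSOD1 and 2659–2856 CPM in wtSOD1 medium, and mSOD1 medium was higher than each control in 6 of 6 pairs. Summed over the 37 ligands it was 2526–2820, 2494–2870 and 2562–2920 CPM, with mSOD1 medium higher in 1 of 6 pairs against either. The ligand count against NTg medium rested on Ntn1: the other 36 ligands summed to 1943–2107 CPM in NTg and 1970–2341 CPM in mSOD1 medium, higher in 4 of 6 pairs, and were higher in 1 of 6 pairs against wtSOD1 medium. On day 1 receptors were higher in mSOD1 medium in 3 of 6 pairs against NTg and 4 of 6 against wtSOD1 medium. These sums weigh each gene by its reads.

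Partners of the receptors were examined in lists chosen with earlier results of these data known. Of 28 tested co-receptors and adhesion partners 5 were higher in mSOD1 than in NTg medium on day 3 and 0 lower (2.94% of all genes passed; list median 0.17). They were Gfra1, the GDNF co-receptor (0.47 ± 0.09, adjusted p = 0.00487, edgeR), its signalling partner Ret (0.31 ± 0.08, 0.0228), the adhesion molecules Cntn1 (0.35 ± 0.08, 0.0159) and Nrcam (0.20 ± 0.06, 0.0448), and Dscam, which also binds netrin (0.41 ± 0.11, 0.0352). GDNF was added to every medium. Against wtSOD1 medium, where 3.37% of all genes passed, 4 of 28 were higher, Gfra1, Ret, Cntn1 and Lrrc4c, the netrin-G partner (0.53 ± 0.15, adjusted p = 0.0389, edgeR). Of 54 intracellular effectors 2 were higher than in NTg medium on day 3, Farp1, an exchange factor that acts with Plxna4 (0.21 ± 0.06, adjusted p = 0.0368, edgeR), and Chn1, an effector of Epha4 (0.23 ± 0.06, 0.039), with a list median of 0.09. That count is near the share of all genes (2.94%). Against wtSOD1 medium 2 of 54 were higher, also near the share of all genes (3.37%): Crmp1, a mediator of Sema3a signals (0.25 ± 0.07, adjusted p = 0.0282, edgeR), and Chn2 (0.30 ± 0.08, 0.0206). On day 1 the single call against NTg medium in these lists was Rnd1, a GTPase that binds plexins, at 1.00 ± 0.14 (adjusted p = 1.74e-05, edgeR), where 0.421% of all genes passed. With day in NTg medium 6 co-receptors rose and 19 fell, and 13 effectors rose and 25 fell (61.5% of all genes passed).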

How the data were processed

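RNA sequencing of 36 libraries was analysed. Whole-number counts of reads per gene were deposited (per the file headers). TopHat 1.3.3, DESeq and the build mm9 are named by the submitters' processing notes, and no counting program, annotation or strand setting is. A second column that the authors deposited (VSE, per the file headers) holds transformed expression on a log2-like scale and was used only as an alternative.

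All 36 libraries entered 1 edgeR 4.0.16 quasi-likelihood fit (R 4.3.3, TMM scaling, filterByExpr) with 1 mean for each of the 6 groups, which left 30 residual degrees of freedom. Genes without a symbol (7, with 0.000516% of reads) were left out. From it 12 comparisons were drawn, and p-values were two-sided and Benjamini-Hochberg adjusted over all 15204 genes, with a threshold of 0.05. CPM used TMM-scaled library sizes. Count depth ran from 4.39 to 88.9 M reads, which limits members near 1 CPM. Alternatives were DESeq2 1.42.0, limma 3.58.1 on the log2-like values, RLE scaling, other filters, a replicate block, and leaving out libraries or experiments. Of these fits only edgeR without a block was tried on simulated counts, for mSOD1 against NTg medium on day 3. Those counts held no shared experiment effect.

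The labels' experiment number was read as a shared experiment that pairs libraries. Within a day, deviations from group means of libraries with the same number correlated at a mean of 0.207 on day 1 and 0.322 on day 3. They were over 0.1 in 16 of 18 pairs on each day, and other pairs had means of -0.041 and -0.0638. Across days the mean was only 0.0518 for the same number (over 0.1 in 20 of 54 pairs) and -0.0104 for other pairs. The replicate block that is not within each day assumes an experiment effect shared by both days, which these values show only weakly.

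The members, the gene lists, the comparisons and the rule for named genes were chosen with earlier results of these data known. Named were the members past the threshold between media or in an interaction, up to 4 per family with the largest change with day past the threshold in all 3 media (where the average log2 CPM was 1 or more), and a fixed set of well-known members. Exon lengths came from GENCODE M21 and promoter windows from RefSeq, matched by symbol or gene identifier, and no coordinates were converted.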

Additional observations from a re-analysis of the deposited data

Results flagged for a closer look

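Of 240 groups of 6 libraries (40 named members in 6 groups), 24 held a library far from the other 5 by Dixon's criterion, where chance flags about 1 in 20 groups. Members of 1 library share its reads, so these flags are not independent. Values are CPM, each with that of the nearest library.

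The 5 low values of mSOD1 replicate 5 of day 1 were Plxna1 at 251 (next 311), Plxna4 at 113 (169), Plxnc1 at 70.8 (86.0), Slit2 at 214 (253) and Slit3 at 309 (369). In wtSOD1 replicate 4 of day 1, the largest library, high values were those of Robo1 at 122.5 (104), Sema3d at 42.3 (35.6), Slit2 at 310 (266) and Slit3 at 435.5 (383). NTg replicate 6 of day 1, the smallest library, was low in Ntng2 at 7.31 (10.6), Plxna1 at 264.5 (308) and Sema3b at 2.83 (4.61).

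On day 3 replicate 1 was low in each medium: in NTg for Sema3b at 14.3 (17.3) and Slit2 at 203 (252), in mSOD1 for Sema3d at 63.5 (89.0) and Slit2 at 182 (226), and in wtSOD1 for Plxnb2 at 346 (383), Sema3a at 113 (127) and Sema3b at 12.8 (16.9). NTg replicate 1 of day 3 was high in Ephb1 at 67.0 (53.7). Single high values were Efnb3 in mSOD1 replicate 3 of day 1 at 52.5 (49.99), Ntn1 in NTg replicate 2 of day 3 at 876 (607), Sema6d in mSOD1 replicate 3 of day 3 at 314 (224) and Slit3 in NTg replicate 5 of day 1 at 461 (399.6).

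The change of Ephb1 with day differed between mSOD1 and wtSOD1 medium by 0.53 on the log2 scale (interaction, edgeR adjusted p = 0.0349). The adjusted p was 0.0774 when NTg replicate 6 and wtSOD1 replicate 4 of day 1 were left out.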

How the results depend on the processing

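With the replicate block, the members past the threshold on day 3 numbered 15 for mSOD1 against NTg medium and 19 against wtSOD1 medium, and the interactions of day 2 against NTg and 9 against wtSOD1 medium. With the block within each day the day 3 counts were 22 and 25, and on day 1 they were 1 (Efnb2) against NTg and 3 against wtSOD1 medium. The block moved no other count by over 1.5 times and ended no call of a named member. For the interaction of mSOD1 against wtSOD1 medium, DESeq2 called 4 members (1.53% of all genes) and the fit without NTg replicate 6 and wtSOD1 replicate 4 of day 1 called 0 (0.406%). Without the low-count filter 4 members passed in mSOD1 against NTg medium on day 3 (share of all genes not given). RLE scaling, the filter at 1 CPM in 6 libraries and the authors' log2-like values kept every count within 1.5 times.

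When libraries or experiments were left out, the counts ran from 0 to 13 for mSOD1 against NTg and from 2 to 16 against wtSOD1 medium on day 3, from 0 to 1 and from 0 to 4 for their interactions, and from 55 to 60, 49 to 54 and 52 to 58 for day in NTg, mSOD1 and wtSOD1 medium. The other comparisons stayed at 0. For single libraries left out no share of all genes is given. Efnb2, Epha4 and Plxnd1, which did not pass on day 3, changed sign against NTg medium: Efnb2 ran from -0.0494 to 0.0011, the latter without mSOD1 replicate 1, Epha4 from -0.0068 (without NTg replicate 1) to 0.0436, and Plxnd1 from -0.0697 to 0.026, at 0.017 without experiment 6, 0.0048 without NTg replicate 6 and 0.026 without mSOD1 replicate 2. The cause was not tested. Of 2603 repeats for single members, 2452 kept direction and side of the threshold. This pools unlike settings. Without mSOD1 replicate 1 of day 3 only 11 of 24 kept both, and without replicate 3 of that group 12 of 24. Members near 1 CPM, such as Robo3, are limited by depth.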
